A study of Canis lupus familiaris with 8 samples.

Results

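MDCK I cells, an epithelial line derived from canine kidney, were profiled by RNA-seq in 4 groups, and the values below concern 4 heat shock and chaperone genes, CRYAB, DNAJB1, HSP90B1 and HSPH1, out of 32704 genes in the count table. They were chosen by symbol: each is the Ensembl gene that the study's supplementary list of regulated genes pairs with that name, and all 4 were among the 19835 genes tested. All libraries came from transfected cells that had received 100 nM siRNA. The Neg-siRNA (300 mOsm) group stayed in isosmotic medium, whereas the remaining groups, Neg-siRNA (500 mOsm) and the Nfat5-1-siRNA and Nfat5-2-siRNA groups, both at 500 mOsm too, spent the last 24 h in medium made hyperosmotic with raffinose, a sugar that cells take up poorly. Neg-siRNA was directed against Slc22a6, an organic anion transporter, and the other siRNAs were independent sequences against Nfat5, a transcription factor that switches on genes for osmolyte accumulation in hypertonic medium. Each group had 2 libraries, replicate 1 from passage 15 and replicate 2 from passage 17 of the same line, so the spread is that between passages of 1 cell line. Bulk RNA was sequenced, and fewer responding cells and less RNA per cell cannot be told apart.

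Chaperones bind proteins that are unfolded or newly made and keep them from aggregating. In the cytosol, HSP70 proteins do this in cycles of ATP use that J-domain proteins start and nucleotide exchange factors complete. DNAJB1 is a J-domain protein that delivers clients to HSP70, and HSPH1, also called HSP105, belongs to the HSP110 branch of the HSP70 family and acts as an exchange factor. CRYAB is alpha-B-crystallin, a small heat shock protein that holds unfolded clients without using ATP. HSP90B1, also called GRP94 or endoplasmin, is the HSP90 protein of the endoplasmic reticulum. Cells of the renal medulla live at high and changing osmolality, and small heat shock proteins and HSP70 proteins are abundant there.

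Between 34564103 and 46043788 reads per library were assigned to genes. Levels are given as CPM, the count of a gene per 1000000 counts of its library, scaled by the trimmed mean of M-values (TMM), and each difference is a log2 fold change from edgeR's quasi-likelihood test. A gene was called at a Benjamini-Yekutieli adjusted p below 0.05 over all 19835 genes. The study drew its list from changes that hyperosmolality and Nfat5 siRNA made in these same libraries. The calls in those comparisons therefore describe the 4 genes and are not independent evidence of a change. The comparison of the siRNAs with each other and that of the siRNA groups with isosmotic cells use the same libraries, so they are not independent of the choice either.

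The siRNA target could not be checked by its symbol. ENSCAFG00000020254, the gene beside NQO1 that takes the place of NFAT5 in the RefSeq gene order and is identified by position only, had a mean of 22.7 CPM in Neg-siRNA (300 mOsm), 82.2 in Neg-siRNA (500 mOsm), 95.9 with Nfat5-1-siRNA and 72.9 with Nfat5-2-siRNA. It rose with hyperosmolality by 1.85 on the log2 scale (adjusted p = 1.07e-05) and differed from Neg-siRNA (500 mOsm) by 0.22 and -0.17 with the siRNAs (adjusted p = 1 for each). The level of this mRNA therefore gives no check of the siRNA labels, and the osmolyte genes that Nfat5 is known to switch on are given further on. Of 10 epithelial marker genes listed for a check of the cell type, only CLDN1, a tight junction claudin, was paired with an identifier. It was present in isosmotic cells at a mean of 168 CPM and in Neg-siRNA (500 mOsm) at 11.6, a log2 difference of -3.86 (SE 0.41, adjusted p = 0.000104). With the siRNAs it was at 90.7 ± 10.1 and 71.3 ± 49.6 CPM (SD, n = 2 each), 2.97 and 2.62 above Neg-siRNA (500 mOsm) (adjusted p = 0.0026 and 0.00344). CLDN1 thus moved with the groups in the opposite direction to the 4 genes, and its part in their changes was not tested. The mesenchymal and immune markers had no paired identifier, and their levels were not analysed here. Mitochondrial genes took 5.67% and 6.52% of counts in the isosmotic libraries, 4.39% and 5.87% in Neg-siRNA (500 mOsm) and 4.34% to 4.65% in the siRNA groups. The part of that difference in the results was not tested.

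The genes lie on 4 chromosomes of the dog genome build CanFam3.1, all on the plus strand. CRYAB occupies chr5:21181908-21186071 with 4 exons, DNAJB1 chr20:48127368-48133952 with 3 exons, HSP90B1 chr15:42456790-42474117 with 18 exons and HSPH1 chr25:8972958-9000762 with 19 distinct exons. Their merged exons span 1685, 5081, 2779 and 5637 bases. No other gene in the annotation shared exonic bases with any of them, although counting without regard to strand leaves antisense reads within these exons indistinguishable.

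HSPH1, the HSP110-family exchange factor, showed the largest rise with hyperosmolality of the 4. Its level in Neg-siRNA (300 mOsm) was 82.3 CPM in replicate 1 and 86.4 in replicate 2. In hyperosmotic Neg-siRNA cells it measured 2661 and 2299.8 CPM. The values were 1253 and 654 CPM with Nfat5-1-siRNA and 1089 and 658 with Nfat5-2-siRNA. All isosmotic libraries lay far below all hyperosmotic ones, and the siRNA libraries lay between the control groups without overlapping either. The change with hyperosmolality was 4.88 on the log2 scale (SE 0.32, adjusted p = 2.33e-06), or 29.4-fold. Relative to Neg-siRNA (500 mOsm), HSPH1 changed by -1.38 with Nfat5-1-siRNA (SE 0.28, adjusted p = 0.0379) and by -1.51 with Nfat5-2-siRNA (SE 0.28, adjusted p = 0.0156), to 38.4% and 35.2% of its level there. The hyperosmotic rise was called in all 8 fits that left out 1 library, where it ran from 4.71 to 4.93. The call with Nfat5-1-siRNA was lost without replicate 1 or 2 of Neg-siRNA (300 mOsm) (adjusted p = 0.0699 and 0.0718), replicate 1 or 2 of Neg-siRNA (500 mOsm) (0.358 and 0.206) or replicate 2 of Nfat5-1-siRNA (0.69), and the call with Nfat5-2-siRNA without either Neg-siRNA (500 mOsm) library (0.219 and 0.11) or replicate 2 of Nfat5-2-siRNA (0.258).

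DNAJB1, the J-domain partner of HSP70, had the smallest rise with hyperosmolality of the 4 on the log2 scale. In CPM that of CRYAB was smaller, at 32.9 compared with 72.6 for DNAJB1. DNAJB1 measured 102 and 107 CPM in Neg-siRNA (300 mOsm), then 172 and 182 in Neg-siRNA (500 mOsm). With Nfat5-1-siRNA the values were 104 and 95.2 CPM, and with Nfat5-2-siRNA they were 98.6 and 86.4. The hyperosmotic control libraries stood above all 6 others. Among those, the Nfat5-1-siRNA range overlapped the isosmotic one, and the Nfat5-2-siRNA values lay just under it. DNAJB1 rose by 0.76 on the log2 scale with hyperosmolality (SE 0.14, adjusted p = 0.0083), a 1.70-fold change. It changed by -0.83 with Nfat5-1-siRNA (SE 0.14, adjusted p = 0.0121) and by -0.93 with Nfat5-2-siRNA (SE 0.14, adjusted p = 0.0036). The rise was not called without replicate 1 or 2 of Neg-siRNA (300 mOsm) (adjusted p = 0.156 and 0.0693) or replicate 1 or 2 of Neg-siRNA (500 mOsm) (0.0696 and 0.121). The fall with Nfat5-1-siRNA was not called without any single library of the groups compared (0.0948 and 0.191 for the control, 0.12 and 0.368 for the siRNA), nor that with Nfat5-2-siRNA without replicate 2 of Neg-siRNA (500 mOsm) (0.0869) or of Nfat5-2-siRNA (0.0589).

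HSP90B1, the chaperone of the endoplasmic reticulum, was abundant in every library. Its values were 778 and 843 CPM in isosmotic Neg-siRNA cells and 2127 and 1557 in hyperosmotic ones. They were 1115 and 714 CPM with Nfat5-1-siRNA and 1094 and 752 with Nfat5-2-siRNA. The hyperosmotic control libraries again stood above all others, and in both siRNA groups the isosmotic range lay between the passages. HSP90B1 rose by 1.18 on the log2 scale with hyperosmolality (SE 0.24, adjusted p = 0.0163), or 2.27-fold. Its differences with the siRNAs, -1.01 and -1.0 (SE 0.24 each), were not called in the fit without the passage as a block (adjusted p = 0.091 and 0.0757), and both were called with it (adjusted p = 5.43e-09 and 7.36e-09). With 2 libraries per group, p values of the block fit, here and below, lean on variance shared across genes. Their small size does not measure how alike the passages were. The hyperosmotic call was lost without replicate 1 or 2 of Neg-siRNA (300 mOsm) (0.233 and 0.135) or replicate 1 of Neg-siRNA (500 mOsm), where the difference was 0.88 (adjusted p = 0.329). Without that last library the siRNA differences were -0.71 and -0.65 (adjusted p = 1 each), and over all fits that left out 1 library they ran from -1.37 to -0.71 and from -1.29 to -0.65.

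CRYAB, the small heat shock protein, was the least abundant of the 4. It measured 7.67 and 6.10 CPM in Neg-siRNA (300 mOsm), from 341 and 206 reads, and 40.6 and 39.0 CPM in hyperosmotic Neg-siRNA cells, from 1495 and 1558 reads. With Nfat5-1-siRNA it measured 13.1 and 4.66 CPM, and with Nfat5-2-siRNA 8.95 and 4.67. The siRNA libraries straddled the isosmotic ones, and all 6 lay well under the hyperosmotic control. CRYAB rose by 2.53 on the log2 scale with hyperosmolality (SE 0.40, adjusted p = 0.00246), or 5.77-fold. It changed by -2.16 with Nfat5-1-siRNA (SE 0.39, adjusted p = 0.0182) and by -2.55 with Nfat5-2-siRNA (SE 0.39, adjusted p = 0.00449). Over the fits that left out 1 library these changes ran from -3.09 to -1.6 and from -3.09 to -2.15. The rise was not called without replicate 2 of Neg-siRNA (300 mOsm) (adjusted p = 0.0628). The falls were not called without replicate 1 or 2 of Neg-siRNA (500 mOsm) (adjusted p = 0.152 and 0.16 for Nfat5-1-siRNA, 0.0573 and 0.0517 for Nfat5-2-siRNA) or without replicate 2 of the siRNA group (0.244 and 0.106).

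**Figure D1:**
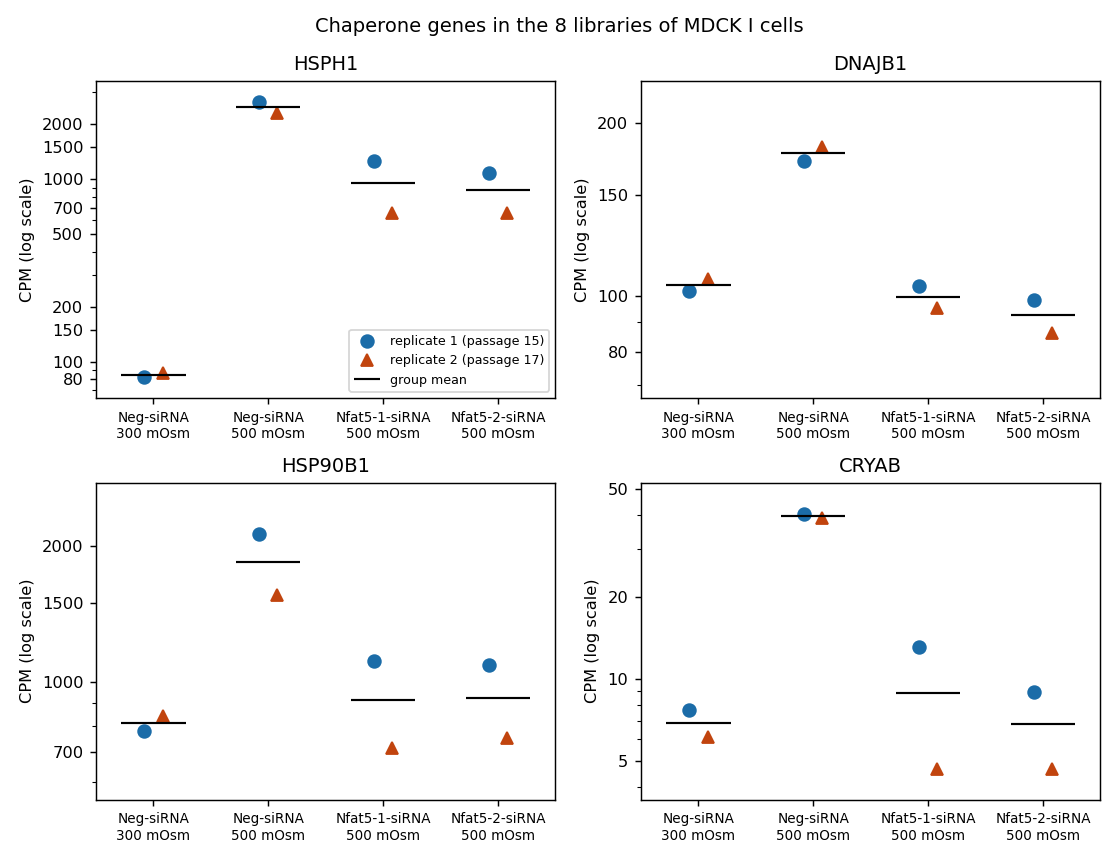
Level of each gene in CPM (TMM-scaled, log axis) in the 8 libraries, by group, with circles for passage 15, triangles for passage 17 and a bar at each group mean. The Neg-siRNA (500 mOsm) libraries stand highest for every gene, and for HSPH1 alone of the 4 the siRNA libraries, at 654 to 1253 CPM, stay above the isosmotic ones, at 82.3 and 86.4.

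In these comparisons all 4 genes were called higher with hyperosmolality, where 11.3% of the genes tested were called higher and 9.23% lower. With Nfat5-1-siRNA 3 of the 4 were called lower, where 4.53% of all genes were called lower and 3.4% higher, and with Nfat5-2-siRNA 3 of the 4, where the shares were 7.38% and 4.67%. The member not called was HSP90B1 each time, and with the passage as a block all 4 were called lower with both siRNAs. In that fit 11.9% and 15.3% of all genes were called lower with the siRNAs. With another filter on low counts (filterByExpr) 1 of the 4 was called lower with Nfat5-1-siRNA and 2 with Nfat5-2-siRNA. Fits of only the 4 libraries compared called 2 and 3. These comparisons share the Neg-siRNA (500 mOsm) libraries, and since they also underlie the list from which the genes came, nothing is read from the shares.

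In the siRNA groups passage 15 gave a higher value than passage 17 in 8 of 8 gene and siRNA combinations. The share over all genes was not computed, so nothing particular to these genes is read from the count. In isosmotic cells HSPH1, HSP90B1 and DNAJB1 were lower in passage 15, and CRYAB was higher. The differences with hyperosmolality, and those of the siRNA groups from Neg-siRNA (500 mOsm), nevertheless had the same sign in both passages for each gene. For HSPH1 the rise was 5.01 in passage 15 and 4.73 in passage 17, while the difference with Nfat5-1-siRNA was -1.09 and -1.81, and with Nfat5-2-siRNA -1.29 and -1.80. For CRYAB the rise was 2.40 and 2.67, and the differences were -1.63 and -3.05 with Nfat5-1-siRNA and -2.17 and -3.05 with Nfat5-2-siRNA. HSP90B1 rose by 1.45 and 0.88 and differed by -0.93 and -1.12, then by -0.96 and -1.05. DNAJB1 had rises of 0.76 and 0.77 and differences of -0.73 and -0.93, then -0.80 and -1.07. All are log2 values from 1 library against 1 and carry no test.

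The siRNAs were then compared with each other. With the same treatment and time, none of the 4 genes was called different by edgeR's quasi-likelihood test, and DESeq2 also called 0 of them. In the edgeR test 0 of the 4 had an unadjusted p below 0.05, where 2957 of all 19835 genes did. Among all genes edgeR called 8, or 0.0403%, in either direction, and with the passage as a block 979, or 4.94%. DESeq2 called 213. The difference of Nfat5-2-siRNA from Nfat5-1-siRNA was -0.13 for HSPH1 (95% interval -0.72 to 0.46), -0.10 for DNAJB1 (-0.40 to 0.20), 0.01 for HSP90B1 (-0.49 to 0.52) and -0.38 for CRYAB (-1.21 to 0.44), all with an adjusted p of 1. With the block the adjusted p stayed at 1 for each, and the intervals were -0.39 to 0.17 for HSPH1, -0.36 to 0.15 for DNAJB1, -0.25 to 0.29 for HSP90B1 and -0.72 to 0.06 for CRYAB. The interval was widest for CRYAB in both fits.

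The siRNA groups at 500 mOsm were also compared with isosmotic Neg-siRNA cells, to ask how much of the hyperosmotic level remained. HSPH1 remained above its isosmotic level. It was higher by 3.50 on the log2 scale with Nfat5-1-siRNA (95% interval 2.85 to 4.15, adjusted p = 1.66e-05), or 11.3-fold, and by 3.37 with Nfat5-2-siRNA (2.72 to 4.02, adjusted p = 1.95e-05), or 10.4-fold. These calls held in all 8 fits that left out 1 library, with values of 2.95 to 3.89 and 2.96 to 3.69. The other 3 genes were not called, with or without the passage as a block. With Nfat5-1-siRNA the difference from isosmotic cells was -0.07 for DNAJB1 (95% interval -0.37 to 0.23), 0.17 for HSP90B1 (-0.33 to 0.68) and 0.36 for CRYAB (-0.46 to 1.19). With Nfat5-2-siRNA it was -0.17 for DNAJB1 (-0.47 to 0.13), 0.19 for HSP90B1 (-0.32 to 0.69) and -0.02 for CRYAB (-0.85 to 0.81). Without the block the intervals leave room for a CRYAB level of up to 1.19 above the isosmotic one, but for DNAJB1 for no more than 0.23. With the block these bounds were 0.65 and 0.19. The block interval for CRYAB with Nfat5-1-siRNA, -0.13 to 0.65, held neither passage, which were at 0.77 and -0.38. It is thus no bound on the level in a passage. Thus 1 of 4 members was called higher in each comparison, where 13.2% and 12.7% of all genes were called higher and 12.2% and 12.9% lower. With the block it was again HSPH1, where 19.3% and 18.9% were called higher.

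Expressed as the share of the log2 rise that the siRNA took away, the fall of HSPH1 was 28.3% with Nfat5-1-siRNA and 30.9% with Nfat5-2-siRNA. For HSP90B1 the shares were 85.3% and 84.2%, for CRYAB 85.6% and 101%, and for DNAJB1 109% and 123%. The percentage of the hyperosmotic level that remained is a different quantity, because it includes the isosmotic level. DNAJB1, for example, was at means of 99.5 and 92.5 CPM with the siRNAs, under its isosmotic mean of 104. By this percentage HSPH1 kept less than DNAJB1 or HSP90B1 and more than CRYAB. With Nfat5-1-siRNA it was at 38.4% of its level in Neg-siRNA (500 mOsm), compared with 56.3% for DNAJB1, 49.7% for HSP90B1 and 22.3% for CRYAB. The corresponding levels with Nfat5-2-siRNA were 35.2%, 52.3%, 50.1% and 17.1%. The shares are ratios of estimates that use the same hyperosmotic control libraries and were not tested against each other. In fits that left out 1 library the CRYAB log2 difference with Nfat5-1-siRNA ran from -3.09 to -1.6. That of HSPH1 ran from -1.92 to -0.99.

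**Figure D2:**
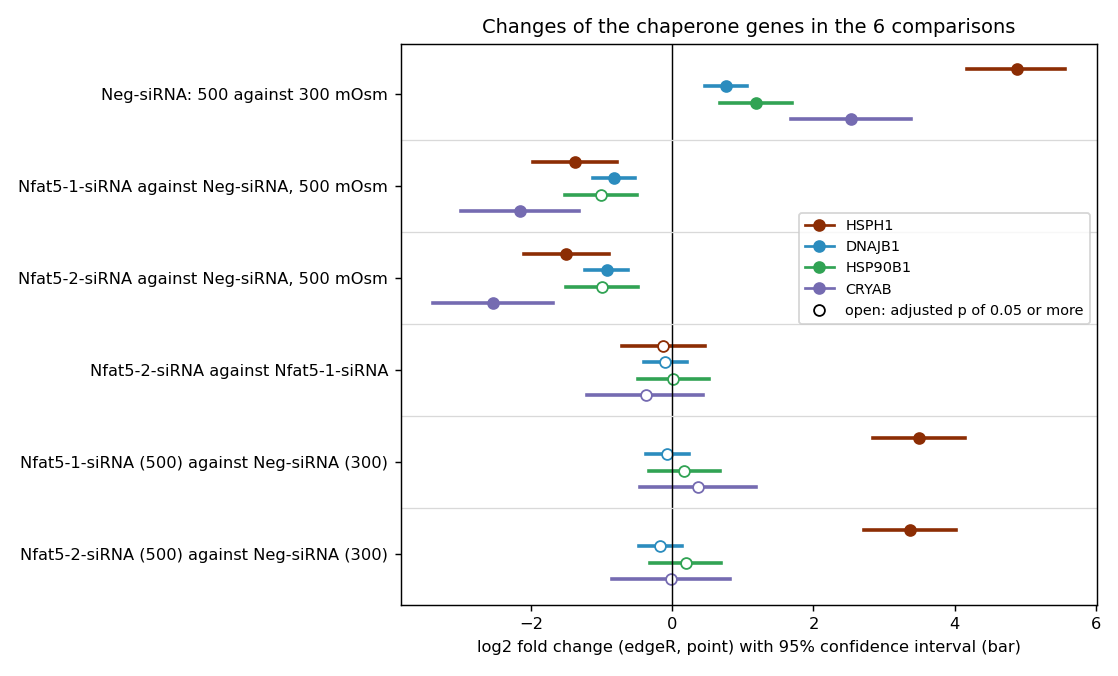
Log2 fold change of each gene in the 6 comparisons (edgeR point estimate with its 95% confidence interval), with filled points for an adjusted p below 0.05 and open points otherwise. In the lower pair of comparisons, siRNA groups at 500 mOsm against isosmotic cells, HSPH1 lies at 3.50 and 3.37 while the intervals of the other 3 genes include 0.

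To set the genes against each other, levels were divided by the length of the merged exons. In isosmotic cells HSP90B1 led with a mean of 292 CPM per kb, followed by DNAJB1 at 20.5, HSPH1 at 15.0 and CRYAB at 4.09. In Neg-siRNA (500 mOsm) HSP90B1 was at 663 CPM per kb, HSPH1 at 440, DNAJB1 at 34.8 and CRYAB at 23.6. HSPH1 thus moved past DNAJB1, and it stayed second in both siRNA groups, at 169 and 155 CPM per kb against 19.6 and 18.2 for DNAJB1. In each library these neighbours kept the same order as their group means. Among all genes ranked by CPM per kb, HSPH1 went from place 5729 in isosmotic cells to 197 in Neg-siRNA (500 mOsm), and it stood at 464 and 466 in the siRNA groups. HSP90B1 went from 277 to 122 and then to 202 and 187. DNAJB1 went from 4565 to 3133 and then to 4952 and 5031, and CRYAB from 9684 to 4321 and then to 8915 and 9530.

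The genes whose pattern was most like each of the 4 were found by Pearson's r of log2 CPM over the 8 libraries, among the 9202 genes whose mean reached 10 CPM. These are descriptions over 4 groups of 2 libraries that share a control and carry no p. HSPH1 was most like B3GLCT (r = 0.998), a glucosyltransferase of the endoplasmic reticulum, and then ENSCAFG00000000073 and ENSCAFG00000009104 (r = 0.996 each). DNAJB1 was most like EDEM2 (r = 0.995), which trims mannose from misfolded glycoproteins, then the tetraspanin CD9 (r = 0.993) and PSD4 (r = 0.991). CRYAB was most like ENSCAFG00000011191 (r = 0.983), ENSCAFG00000012256 (r = 0.977) and the aldehyde dehydrogenase ALDH9A1 (r = 0.976). HSP90B1 was most like ENSCAFG00000018765 (r = 0.988), FRMD4B (r = 0.976) and ENSCAFG00000012256 (r = 0.975). Many genes had such a pattern: 276 had an r above 0.95 to HSPH1, 71 to DNAJB1, 33 to CRYAB and 26 to HSP90B1. Since r ignores the size of a change, a gene that is alike can move much less. With hyperosmolality ENSCAFG00000011191, ENSCAFG00000012256 and ENSCAFG00000018765 differed by 0.49, 0.55 and 0.74. They were not called there or with either siRNA, whereas ALDH9A1 and FRMD4B were called in each of these comparisons. Among the 4 themselves, CRYAB and HSP90B1 were closest (r = 0.959), followed by CRYAB and DNAJB1 (r = 0.948) and DNAJB1 and HSP90B1 (r = 0.888). HSPH1 stood further off, with r of 0.714 to HSP90B1, 0.655 to CRYAB and 0.533 to DNAJB1.

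B3GLCT is also the annotated gene closest to HSPH1. It lies on the minus strand at chr25:8817641-8938884, and 34074 bases separate the genes, whose starts face each other. B3GLCT measured 3.85 and 3.82 CPM in isosmotic Neg-siRNA cells and 47.9 and 39.0 in hyperosmotic ones. It measured 24.0 and 15.7 CPM with Nfat5-1-siRNA and 24.0 and 18.5 with Nfat5-2-siRNA. As for HSPH1, the siRNA libraries lay between the control groups without overlap, at levels far below those of HSPH1. B3GLCT rose by 3.50 on the log2 scale with hyperosmolality (adjusted p = 3.03e-06) and changed by -1.13 (adjusted p = 0.0259) and -1.03 (adjusted p = 0.0331) with the siRNAs. It remained 2.37 and 2.47 above isosmotic cells, and both differences were called.

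CRYAB has a closer neighbour, ENSCAFG00000023925, 911 bases away on the minus strand at chr5:21180081-21180997. The files pair no symbol with it, and in the RefSeq gene order the neighbour of CRYAB on one side is HSPB2, another small heat shock protein gene. Its values were 9.49 and 6.45 CPM in isosmotic Neg-siRNA cells, 16.8 and 14.7 in hyperosmotic ones, 7.75 and 4.34 with Nfat5-1-siRNA and 10.1 and 3.96 with Nfat5-2-siRNA. The hyperosmotic control libraries were the highest, as for CRYAB, but by a smaller margin. The differences of 0.98 with hyperosmolality and -1.38 and -1.17 with the siRNAs were not called (adjusted p = 0.608, 0.212 and 0.377), and with the passage as a block they were (adjusted p = 0.000175, 9.46e-08 and 2.2e-06).

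The genes nearest to DNAJB1 and HSP90B1 were not called with hyperosmolality. ENSCAFG00000016295, 16639 bases from DNAJB1, differed by 0.11 with hyperosmolality and by 0.03 and -0.08 with the siRNAs (adjusted p = 1 each, with or without the block), while DNAJB1 rose by 0.76. ENSCAFG00000030535, 5256 bases from HSP90B1, was at means of 7.17, 6.02, 3.03 and 5.35 CPM in the 4 groups. It differed by -0.25 with hyperosmolality and -0.17 with Nfat5-2-siRNA (adjusted p = 1 each, with or without the block), and by -0.99 with Nfat5-1-siRNA (adjusted p = 0.0955, and 0.006 with the block). Relative to isosmotic cells it was called lower with Nfat5-1-siRNA, at -1.24 (adjusted p = 0.0085). With Nfat5-2-siRNA that difference was -0.42 and not called.

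**Figure D3:**
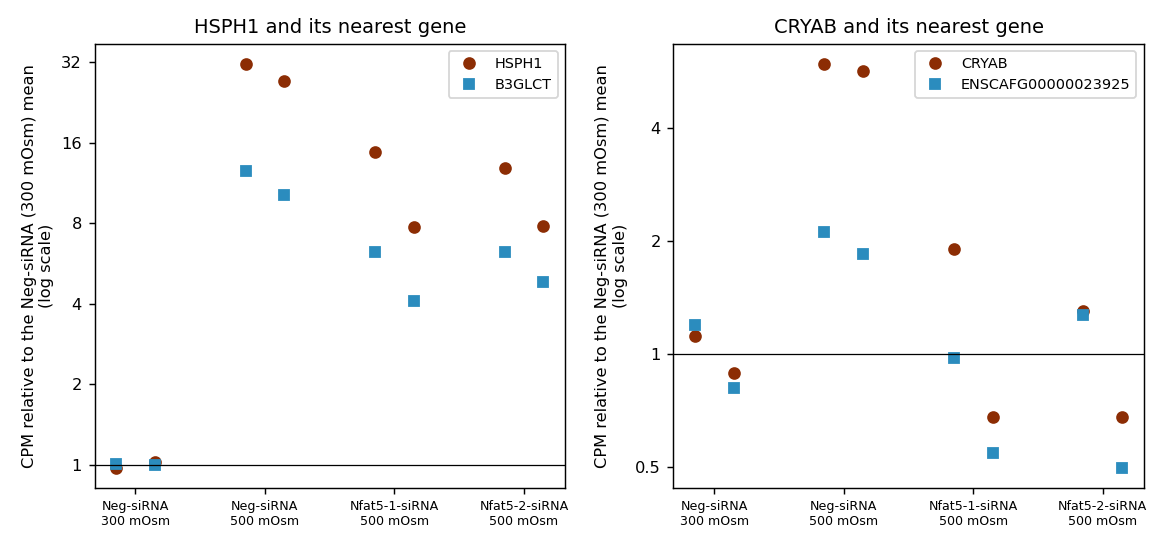
CPM of HSPH1 with its nearest gene B3GLCT (left) and of CRYAB with its nearest gene ENSCAFG00000023925 (right), each divided by that gene's Neg-siRNA (300 mOsm) mean (log axis, line at 1), with 1 point per library by group. HSPH1 and B3GLCT both stay above 1 in every hyperosmotic library, whereas CRYAB and its neighbour lie on both sides of 1 in the Nfat5-2-siRNA group.

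Other chaperone genes were taken from lists covering the HSP70 family, exchange factors, J-domain proteins, small heat shock proteins, the HSP90 family, chaperonins, protein folding and degradation in the endoplasmic reticulum, and heat shock factors. Of 173 symbols 20 were paired with an identifier, all through the study's list, so they too were chosen on these libraries and their counts are not independent evidence of direction. The paper describes its list as genes raised by hyperosmolality and lowered by both siRNAs. Against that description, SIL1 (-1.12), CDC37L1 (-0.78) and the marker CLDN1 (-3.86) fell with hyperosmolality, and EIF2AK3 rose with Nfat5-1-siRNA (0.94). Whether these symbols are paired rightly was not tested. The chaperonins had 0 of 18 paired and were not analysed here, as were the other small heat shock proteins and J-domain proteins. Besides the 4 genes, 16 were measured. With hyperosmolality, where 11.3% of all genes were called higher and 9.23% lower, 10 of the 16 were called higher, 2 lower and 4 not called, and their median difference was 0.94, compared with 0 over all genes. With Nfat5-1-siRNA, where 4.53% of all genes were called lower and 3.4% higher, 9 were called lower and 2 higher (median -0.88, compared with -0.07 over all genes). With Nfat5-2-siRNA, where the shares were 7.38% and 4.67%, 14 and 1 were (median -1.03, compared with -0.03). With the passage as a block, 14 of the 16 were called higher and 2 lower with hyperosmolality, and 14 lower and 2 higher with each siRNA. The shares of all genes in that fit were 17.3% higher and 15.7% lower with hyperosmolality, 11.9% lower and 9.61% higher with Nfat5-1-siRNA, and 15.3% lower and 10.7% higher with Nfat5-2-siRNA.

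Most of the 20 belonged to folding and degradation in the endoplasmic reticulum, the compartment of HSP90B1, with 14 of 59 symbols measured. There 10 were called higher with hyperosmolality (11.3% of all genes), 1 lower (9.23%) and 3 not called. On the log2 scale the largest rise was that of EDEM3, a relative of EDEM2, from 63.4 ± 0.72 to 457 ± 45.7 CPM (SD, n = 2), a difference of 2.85. It was followed by CRELD2, a stress-induced protein of the endoplasmic reticulum, at 2.00, the ubiquitin ligase MARCH6 at 1.50, the calcium-binding CALU at 1.39 and the disulfide isomerase TMX3 at 1.26. With Nfat5-1-siRNA 7 of the 14 were called lower (4.53% of all genes), 1 higher, EIF2AK3 (3.4%), and 6 not called. With Nfat5-2-siRNA 12 were called lower (7.38%) and 0 higher (4.67%), and HSP90B1 and EIF2AK3 were not called. With the passage as a block 13 of the 14 were called higher and 1 lower with hyperosmolality, and 13 lower and 1 higher with each siRNA, in the fit whose shares over all genes are given above. Relative to isosmotic cells 3 of 14 were called higher, 3 lower and 8 not called with Nfat5-1-siRNA, where 13.2% of all genes were called higher and 12.2% lower. With Nfat5-2-siRNA the counts were 4, 3 and 7, where the shares were 12.7% and 12.9%, and nothing particular to the list is read from them. HSP90B1 was among those not called, as was EDEM2.

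The members of that list that parted from HSP90B1 were picked after their values were seen. The oxidase ERO1A, which reoxidizes disulfide isomerases, ended below its isosmotic level, at -0.97 with Nfat5-1-siRNA (adjusted p = 0.00416) and -1.03 with Nfat5-2-siRNA (adjusted p = 0.00255). QSOX1, another thiol oxidase, ended at -1.31 and -1.39 relative to it (adjusted p = 0.00166 and 0.000999). EIF2AK3, the stress sensor kinase PERK, ended above it, by 1.73 and 1.64 (adjusted p = 0.000157 and 0.000214), as did EDEM3, by 2.04 and 1.59, and CRELD2, by 1.08 and 1.27, all of them called. SIL1, the exchange factor for the HSP70 protein of the endoplasmic reticulum, changed in the opposite direction to HSPH1, the cytosolic exchange factor, with hyperosmolality. It was at 94.5 ± 3.82 CPM in isosmotic cells and 43.5 ± 0.683 in Neg-siRNA (500 mOsm), a difference of -1.12 (adjusted p = 0.000455), and with the siRNAs at 28.3 ± 1.81 and 25.7 ± 1.31 (SD, n = 2 each). Relative to Neg-siRNA (500 mOsm) its differences, -0.62 (adjusted p = 0.0768) and -0.76 (adjusted p = 0.0167), had the same sign as those of HSPH1, and both were called with the passage as a block (adjusted p = 0.00133 and 2.53e-05).

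HSF2, a heat shock transcription factor, rose from 10.1 ± 0.828 to 72.0 ± 0.316 CPM with hyperosmolality (SD, n = 2), by 2.83 on the log2 scale (adjusted p = 1.69e-06). It fell to 26.7 ± 4.77 CPM with Nfat5-1-siRNA and 17.6 ± 1.67 with Nfat5-2-siRNA, differences of -1.43 and -2.03 (adjusted p = 0.00121 and 7.37e-05). Like HSPH1, it was called above isosmotic cells in both siRNA groups, by 1.40 and 0.80 (adjusted p = 0.000288 and 0.0214). CDC37L1, a relative of the HSP90 cochaperone CDC37, moved opposite to HSP90B1, with a difference of -0.78 with hyperosmolality (adjusted p = 0.0144) and rises of 0.86 and 0.76 with the siRNAs (adjusted p = 0.0176 and 0.0262). HSPA1L, the other HSP70-family gene measured and chosen after its values were seen, was at 8.17 ± 1.01 CPM in isosmotic cells and 14.5 ± 1.39 in Neg-siRNA (500 mOsm) (SD, n = 2), a difference of 0.83 (adjusted p = 0.0767 without the passage as a block and 0.0042 with it). With the siRNAs it fell to 6.38 ± 0.245 and 6.63 ± 0.801 CPM (SD, n = 2 each), differences of -1.18 and -1.13 (adjusted p = 0.0179 and 0.0168).

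**Figure D4:**
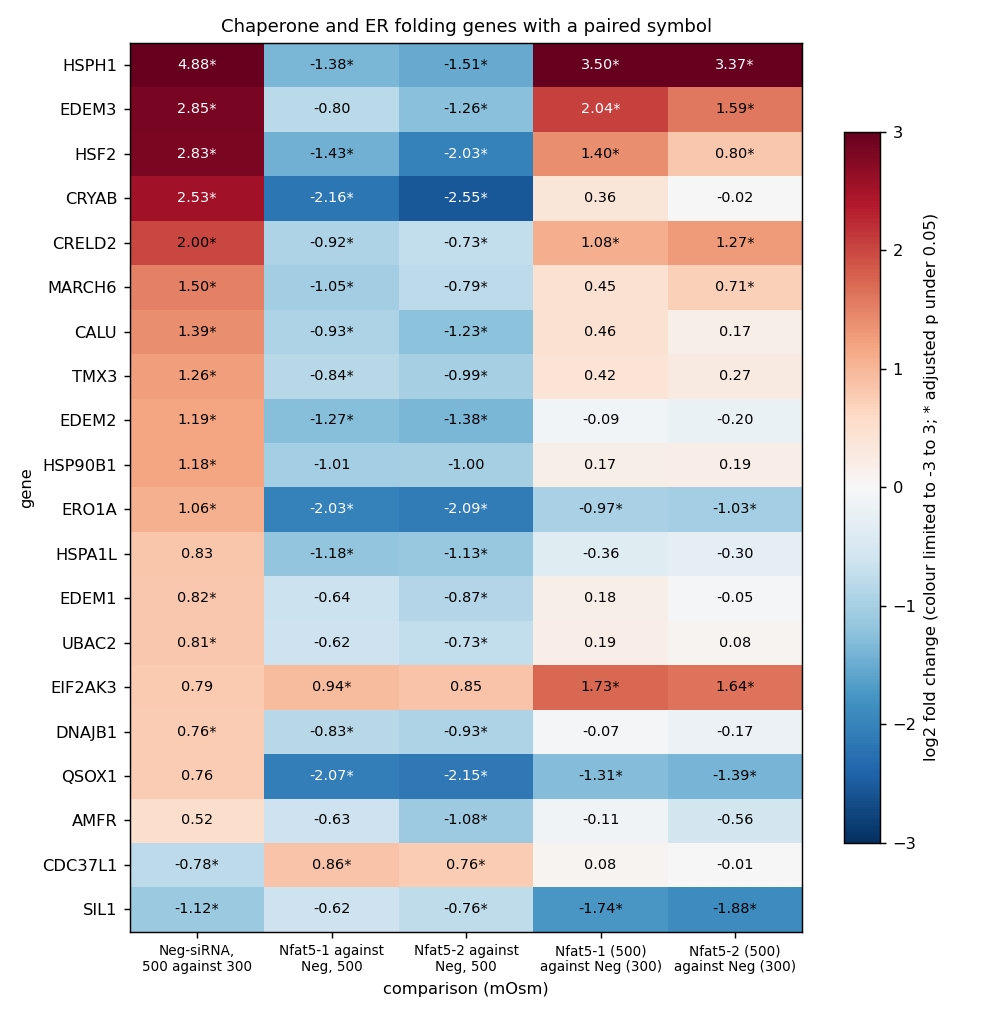
Heat map of log2 fold changes of the 20 measured chaperone genes (rows, ordered by the hyperosmotic difference) in 5 comparisons (columns), with the value in each cell, an asterisk at an adjusted p below 0.05 and colour limited to -3 to 3. HSPH1 has the largest rise of the 20 at 4.88, and SIL1 and CDC37L1 are the genes below 0 in hyperosmotic medium, at -1.12 and -0.78.

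The osmolyte genes, paired through the same list and thus also chosen on these libraries, gave a scale for these changes. SLC6A12, the betaine transporter, SLC6A6, the taurine transporter, SLC5A3, the myo-inositol transporter, and AKR1B1, the aldose reductase that makes sorbitol, rose by 9.01, 3.66, 5.92 and 5.82 on the log2 scale with hyperosmolality. The rise of HSPH1, at 4.88, lay within that range, and those of CRYAB, HSP90B1 and DNAJB1 lay below it. With Nfat5-1-siRNA the osmolyte genes differed from Neg-siRNA (500 mOsm) by -1.74, -1.29, -1.46 and -2.21 in the same order. Of the 4, 3 were called lower, where 4.53% of all genes were, and SLC5A3 was not (adjusted p = 0.0716). With the passage as a block SLC5A3 was called lower too (adjusted p = 4.28e-07). With Nfat5-2-siRNA the differences were -1.92, -1.47, -1.97 and -2.10, and all 4 were called lower, where 7.38% of all genes were. With the block all 4 were called lower with each siRNA, where the shares of all genes were 11.9% and 15.3%. The differences of HSPH1, -1.38 and -1.51, lay within the ranges of the osmolyte genes without the block. Those of CRYAB (-2.16 and -2.55) lay within the first range and beyond the second, and those of HSP90B1 and DNAJB1 were smaller. All 4 osmolyte genes remained above isosmotic cells in both siRNA groups, by 2.37 to 7.27 with Nfat5-1-siRNA and 2.19 to 7.09 with Nfat5-2-siRNA, ranges that contain the 3.50 and 3.37 of HSPH1. All 4 were called higher in each comparison, where 13.2% and 12.7% of all genes were.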

How the data were processed

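Poly(A) RNA of 8 libraries was sequenced by the authors, who aligned reads with HISAT2 2.0.5 to CanFam3.1 and counted them over Ensembl exons with featureCounts 1.5.1, per the file headers without regard to strand. The deposited values are raw counts per gene, 1 column per library. With no fragment counting named in the header, mates of a pair may have been counted separately. Symbols came from the study's supplementary list, and the members and gene lists were chosen with earlier results of these data known.

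Genes whose counts summed to 5 or more were kept (19835 of 32704). One edgeR 4.0.16 quasi-likelihood model in R 4.3.3 held the 4 groups, with TMM factors (0.883 to 1.12) and the Benjamini-Yekutieli adjustment, and was tested on simulated data in which 61 of 100 genes changed 2-fold and 94 of 100 changed 4-fold were recovered in the hyperosmolality comparison (19358 genes). The simulation had no passage effect and gave genes of like abundance the same variability. Its recovery rates therefore need not hold in the real libraries. Named genes were the 4 members, up to 5 called genes of each chaperone list with a mean of at least 10 CPM by size of the hyperosmotic change, the 3 most alike genes of each member, and 4 osmolyte genes. Genes named outside that rule are identified as such or are the nearest genes and the position-matched Nfat5. CPM per kb was divided by merged exon length. Alternatives were DESeq2 1.42.0 and its size factors, other filters on low counts, the Benjamini-Hochberg adjustment, the passage as a block, fits of the 4 libraries compared, and fits without each library. Labels and sources tie equal replicate numbers to 1 passage, and same-numbered libraries deviated together (r of 0.123 to 0.465 over 6 pairs of groups, 12424 genes).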

Additional observations from a re-analysis of the deposited data

Results flagged for a closer look

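Several differences that were not called had opposite signs in the passages, and whether passages differ was not tested. Against isosmotic cells, CRYAB was at 0.77 in passage 15 and -0.38 in passage 17 with Nfat5-1-siRNA, and at 0.22 and -0.38 with Nfat5-2-siRNA. HSP90B1 was at 0.52 and -0.24, and at 0.49 and -0.17. DNAJB1 with Nfat5-1-siRNA was at 0.03 and -0.17. Between the siRNAs, HSP90B1 was at -0.03 and 0.07 and HSPH1 at -0.20 and 0.01. All are log2 values from 1 library against 1.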

How the results depend on the processing

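For the 4 genes, every difference called in the model without a block kept its sign in each alternative run. The edgeR quasi-likelihood test with the passage as a replicate block called 6565 genes with hyperosmolality, 4264 with Nfat5-1-siRNA, 5168 with Nfat5-2-siRNA and 979 between the siRNAs, and besides HSP90B1 changed no call among the 4. With the Benjamini-Hochberg adjustment the counts were 7033, 4033, 5250 and 186, and 7979 and 8138 against isosmotic cells. Without a filter they were 2866 with Nfat5-1-siRNA, 3760 with Nfat5-2-siRNA and 337 between the siRNAs. DESeq2 called 2682 with Nfat5-1-siRNA and 213 between the siRNAs, edgeR with DESeq2 size factors 34 between the siRNAs, filterByExpr 0, and the 4 libraries compared alone 1565 with Nfat5-2-siRNA and 0 between the siRNAs. With filterByExpr 1 of the 4 genes was called lower with Nfat5-1-siRNA, since CRYAB (adjusted p = 0.0595) and HSPH1 (0.0978) were lost, and HSPH1 was lost with Nfat5-2-siRNA (0.0519). The 4 libraries compared alone also lost HSPH1 with Nfat5-1-siRNA (0.0939). HSP90B1 was called lower with both siRNAs without a filter (0.000105 and 9.43e-05), with DESeq2 (0.00285 and 0.00421) and with the Benjamini-Hochberg adjustment (0.00869 and 0.00723). CRYAB with Nfat5-2-siRNA against isosmotic cells was at 0.02 with DESeq2 and with its size factors.

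Fits that left out 1 library called 2384 to 4157 genes with hyperosmolality, 159 to 1620 with Nfat5-1-siRNA, 954 to 2272 with Nfat5-2-siRNA, 0 to 38 between the siRNAs, and 2540 to 5103 and 3319 to 4945 against isosmotic cells. Of the 4 genes they called 1 to 4 with hyperosmolality and 0 to 3 with each siRNA. A group then keeps 1 library, assumed to vary like the other groups. Some differences that were not called turned sign. Between the siRNAs CRYAB ran from -0.94 to 0.55, HSP90B1 from -0.28 to 0.37 and HSPH1 from -0.53 to 0.42. Against isosmotic cells CRYAB ran from -0.56 to 0.93 and from -0.56 to 0.38, and HSP90B1 from -0.18 to 0.46 and from -0.11 to 0.43. CRYAB had the fewest reads of the 4 genes, 197 to 1558 per library.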
